A study of Mus musculus with 6 samples.

Results

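Cxcl1, Cxcl2, Cxcl3 and Cxcl5, the CXC chemokines that attract neutrophils in the mouse, and Cxcr2, the receptor through which they act, were examined in hearts of endotoxemic mice treated with recombinant human thrombomodulin (rhTM) or saline. The 5 genes were taken by symbol, each was represented by 1 probe of the array, and all 5 were among the 14701 genes tested of 22815 genes named on it. Every mouse was a male C57BL6 animal aged 10 weeks that was fasted for 16 h and given 20 mg/kg lipopolysaccharide (LPS), the bacterial endotoxin, into the peritoneum. In the rhTM group (3 mice) a soluble recombinant version of human thrombomodulin, an anticoagulant receptor of endothelium, was injected at 3 and 24 h after LPS, and in the saline group (3 mice) saline was injected at the same times. Hearts were taken 30 h after LPS and total RNA of each was hybridised to a 1-colour Agilent array. No heart without LPS was analysed here, so the comparison addresses what rhTM did to transcripts of the endotoxemic heart and not what LPS did.

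CXCR2 is a G protein-coupled receptor carried mainly by neutrophils. Its ligands share a glutamate-leucine-arginine motif ahead of the CXC cysteines, are bound by glycosaminoglycans on the vessel wall and direct neutrophils out of the blood. In LPS-exposed tissue they are made by endothelial cells, macrophages, fibroblasts and other stromal cells under the control of Toll-like receptor, interleukin-1, tumour necrosis factor and interleukin-17 signalling through NF-kB, and the ligand mRNAs are short-lived. Blocking CXCR2 or its ligands is known to reduce neutrophil entry into inflamed organs.

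The ligand genes lie in 1 cluster on chromosome 5, and Cxcr2 lies on chromosome 1. RefSeq's promoter table of assembly GRCm38.p6 held 4 of the 5 genes, Cxcl1, Cxcl2, Cxcl3 and Cxcr2. The 120 bases before the transcription start are shown for the 3 ligands among them because their longest common run, GGGAATTTCCC, has the form of an NF-kB site and is followed in each by ATAAAAG. Capitals mark these letters. The windows are chr5:90891125-90891244, chr5:90903779-90903898 and chr5:90785981-90786100, all on the plus strand.
Cxcl1: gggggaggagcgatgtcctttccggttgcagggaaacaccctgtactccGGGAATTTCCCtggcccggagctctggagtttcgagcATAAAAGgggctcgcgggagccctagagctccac
Cxcl2: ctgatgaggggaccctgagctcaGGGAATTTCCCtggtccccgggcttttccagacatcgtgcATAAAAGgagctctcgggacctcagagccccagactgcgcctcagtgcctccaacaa
Cxcl3: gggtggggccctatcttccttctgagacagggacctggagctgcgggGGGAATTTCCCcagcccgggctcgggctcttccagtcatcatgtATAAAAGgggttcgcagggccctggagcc

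The shared run began 71, 97 and 73 bases before the start of Cxcl1, Cxcl2 and Cxcl3, and its opening base lay 37, 40 and 44 bases before that of ATAAAAG. Both strings were chosen after the members' letters were seen, so their presence in the 3 ligands is a description. Searched on both strands of all 32851 promoter windows of the table, each reaching 250 bases before and 50 after the start, GGGAATTTCCC was present in 14 (0.0426%) and ATAAAAG in 1779 (5.42%). Both occurred in 3 windows, those of the 3 ligands. The AP-1 motif TGANTCA, present in 7.81% of windows, was found in none of the 4 members' windows, and the Cxcr2 window held none of the 3 strings. Such matches do not show that a factor was bound.

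The arrays were not equally placed. Saline 1 and 2 were on slide 1 (scan 1), while saline 3 and all rhTM arrays were on slide 2 (scan 2), so that a comparison within a slide rests on saline 3 alone. Across the genes tested rhTM 1 and 2 correlated at 0.994 and saline 1 and 2 at 0.987, whereas rhTM 3 correlated with saline 3 (0.965) about as well as with rhTM 1 and 2 (0.969 and 0.970). Between 54.8% and 62.8% of the 59305 spots of an array were well above background, none was saturated, and with 3 arrays a group the precision of each value is limited by their number. The 75th percentile of processed signals, used for scaling, was 671 and 732 on slide 1 and 394 to 466 on slide 2. The R2 reported for the spike-in controls was 0.990 and 0.987 for saline 1 and 2 on slide 1. It was 0.845 to 0.881 for the arrays on slide 2. All 9 cardiomyocyte markers were well above background on all 6 arrays. The fit with group as its only term (limma, Benjamini-Hochberg adjustment over all genes tested, calls at an adjusted p under 0.05) called 355 genes lower and 405 higher with rhTM.

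All 5 members had a lower mean with rhTM, with log2 changes of -4.36 to -1.56, where 49.2% of all genes had a lower mean, and none passed the test of the group-only fit. Their signals were far apart within the rhTM group. Relative to the 75th percentile of the array, rhTM 1 and 2 lay below every saline heart for all 5 genes. On that scale rhTM 3 lay above saline 1 for all 5. Of all genes tested, 26.2% had rhTM 1 and 2 below every saline heart, and 4.73% also had rhTM 3 above saline 1. In unscaled processed signal rhTM 3 lay below every saline heart for Cxcl1, Cxcl3 and Cxcl5. The group-only fit called 0 of 5 members (limma, 3 at an unadjusted p under 0.05), where 2.41% of all genes were called lower and 2.75% higher. A fit blocked on slide called 0 of 5 (limma, 4 at an unadjusted p under 0.05), against 1.95% of all genes lower and 3.83% higher. With the mouse number of the labels as a block, 3 of 5, Cxcl2, Cxcl3 and Cxcl5, were called lower, against 1.65% of all genes lower and 2.43% higher. The median change of the 5 genes was -3.22, beside 0.01 for all genes tested. In whole-heart RNA, fewer cells that express a gene and less of its RNA per cell cannot be told apart.

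**Figure D1:**
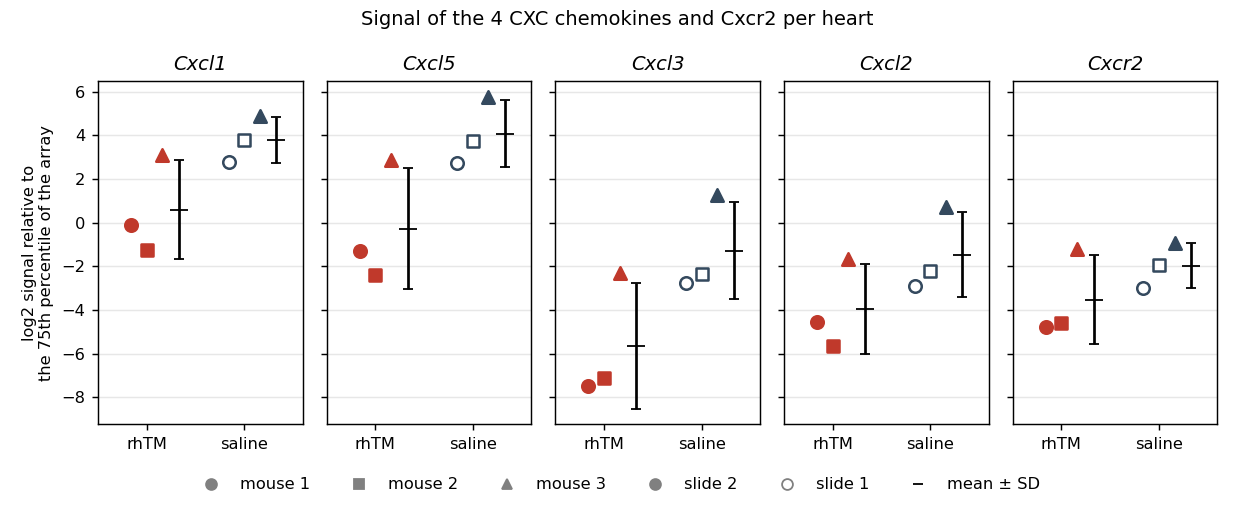
Signal of each gene per heart, as log2 of the processed signal relative to the 75th percentile of its array, with rhTM hearts left of saline hearts, a marker shape per mouse number, open symbols for slide 1 and bars for mean ± SD (n = 3). In every panel rhTM 1 and 2 lie below all saline hearts, while rhTM 3 lies above saline 1.

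Cxcl1, also known as KC and a principal neutrophil attractant of the mouse, had processed signals of 427, 196 and 3596 in rhTM hearts 1 to 3, against 5004, 9234 and 11559 in saline hearts 1 to 3. Relative to the 75th percentile of the array, these were log2 values of -0.12, -1.25 and 3.13 with rhTM and 2.77, 3.78 and 4.87 with saline. On this scale the groups overlapped by rhTM 3, which stood above saline 1 and below saline 2 and 3. In processed signal rhTM 3 lay below all saline hearts. The mean was 0.59 ± 2.27 in rhTM hearts and 3.81 ± 1.05 in saline hearts (SD, n = 3), a change of -3.22 ± 1.14 (SE, 9.34-fold lower, 95% interval -5.94 to -0.50, limma adjusted p = 0.123). Within slide 2, where saline 3 is the sole saline heart, the change was -4.29 ± 1.64 (limma adjusted p = 0.154). Without rhTM 3 it was -4.49 and passed the test (limma adjusted p = 0.0346).

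Cxcl5, or LIX, a CXCR2 ligand of epithelial and stromal cells, showed the same order of hearts as Cxcl1. Its processed signals were 189, 88.2 and 3008 in rhTM hearts 1 to 3 and 4909, 8963 and 21650 in saline hearts 1 to 3. On the log2 scale relative to the 75th percentile, rhTM hearts were at -1.29, -2.40 and 2.87 and saline hearts at 2.75, 3.74 and 5.78. Again rhTM 3 lay just above saline 1, and the other 2 rhTM hearts lay over 4 log2 units below every saline heart. The mean was -0.28 ± 2.78 in rhTM hearts and 4.09 ± 1.55 in saline hearts (SD, n = 3), a change of -4.36 ± 1.44 (SE, 20.6-fold lower, 95% interval -7.81 to -0.92, limma adjusted p = 0.111). Within slide 2 the change was -6.05 ± 1.99 (limma adjusted p = 0.118). With the mouse number as a block Cxcl5 passed the test (limma adjusted p = 0.0464), as it did without rhTM 3 (change -5.93, limma adjusted p = 0.0356).

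Cxcl3, the mouse relative of the GRO chemokines known as Dcip1, was near the limit of detection with rhTM. Its probe was well above background on 1 of 3 rhTM arrays, that of rhTM 3, and on all 3 saline arrays. Processed signals were 2.57, 3.39 and 83.8 in rhTM hearts 1 to 3 and 108, 132 and 953 in saline hearts 1 to 3. The log2 values relative to the 75th percentile were -7.50, -7.10 and -2.30 with rhTM and -2.76, -2.35 and 1.27 with saline, so that rhTM 3 exceeded saline 1 and 2. The change was -4.35 ± 1.65 (SE, 95% interval -8.30 to -0.41, limma adjusted p = 0.138), with means of -5.63 ± 2.89 in rhTM hearts and -1.28 ± 2.22 in saline hearts (SD, n = 3). With normexp correction of the raw spot medians and quantile normalization it was -1.85. Within slide 2 the change was -6.91 ± 2.05 (limma adjusted p = 0.0987), and with the mouse number as a block the gene passed the test (limma adjusted p = 0.0390). Without saline 3 the change was -3.08, and without both hearts numbered 3 it was -4.74 and passed (limma adjusted p = 0.00183). That last setting called 3873 genes lower and 3948 higher of 14701.

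Cxcl2, or MIP-2, a ligand released by macrophages and other myeloid cells, was dim as well. Its processed signals were 19.9, 9.41 and 130 in rhTM hearts 1 to 3, of which that of rhTM 2 was not well above background, and 98.6, 143 and 659 in saline hearts 1 to 3. The log2 values were -4.54, -5.63 and -1.66 with rhTM and -2.89, -2.23 and 0.74 with saline. Here saline 3 stood more than 2 log2 units above every other heart and rhTM 3 stood above saline 1 and 2. The change of -2.49 ± 1.28 (SE, 5.60-fold lower, 95% interval -5.54 to 0.57, limma adjusted p = 0.231) rested strongly on single hearts. It was -1.38 without saline 3, -1.64 without rhTM 2 and -4.69 ± 1.47 within slide 2 (limma adjusted p = 0.108). With normexp correction the change was -1.37. With the mouse number as a block Cxcl2 passed the test (limma adjusted p = 0.0465), each rhTM heart lying below the saline heart of its number by 1.65, 3.40 and 2.40.

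Cxcr2, the receptor, had processed signals of 16.9, 19.3 and 181 in rhTM hearts 1 to 3 and 91.4, 173 and 207 in saline hearts 1 to 3, all well above background. The log2 values were -4.78, -4.60 and -1.19 with rhTM and -3.002, -1.95 and -0.93 with saline, so that rhTM 3 lay between saline 2 and 3. Its change was the smallest of the 5, at -1.56 ± 1.03 (SE, 2.94-fold lower, 95% interval -4.04 to 0.92, limma adjusted p = 0.331). Within slide 2 it was -2.59 ± 1.48 (limma adjusted p = 0.285), and with the mouse number as a block it stayed above the threshold (limma adjusted p = 0.106). Without rhTM 3 it was -2.73 (limma adjusted p = 0.0632) and with normexp correction -0.74. For hearts numbered 3 the receptor differed by only -0.25, against -1.75 for Cxcl1 and -2.91 for Cxcl5.

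**Figure D2:**
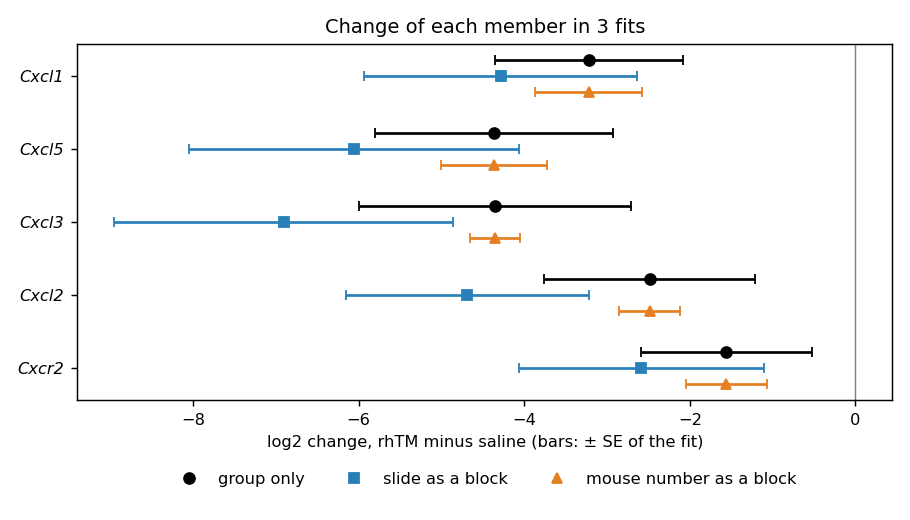
Log2 change of each gene, rhTM minus saline, with bars of ± 1 SE, from the group-only fit, a fit blocked on slide and a fit blocked on mouse number. All 15 estimates lie below 0, the slide estimates lie furthest from it, and the bars are shortest with the mouse number as a block.

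The spread within groups was large for these genes. Their SD over rhTM hearts, 2.02 to 2.89 on the log2 scale, lay at percentiles 99.5 to 99.8 of all genes tested, and their SD over saline hearts at percentiles 92.2 to 99.5. In rhTM 3 the genes stood at least 3.42 above the mean of rhTM 1 and 2, and in saline 3 they stood at least 1.55 above the mean of saline 1 and 2. Exact two-sided permutation tests of each gene over the 6 hearts gave p = 0.2 for Cxcl1 and Cxcl5 and p = 0.3 for the other 3, where 0.1 is the smallest p that 3 hearts against 3 allow. Over the 6 arrays, which share these contrasts between hearts, the 4 ligands correlated pairwise at Pearson r of 0.947 to 0.997, and Cxcr2 correlated with the ligands at 0.928 to 0.939.

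In the chemokine cluster on chromosome 5 the low means were not shared by every gene. From Cxcl5 the order runs through Ppbp, Pf4, Cxcl3, Cxcl15, Cxcl1 and Cxcl2. Ppbp, the platelet chemokine precursor that also gives a CXCR2 ligand, changed by -0.09 ± 0.31 (limma adjusted p = 0.860, -0.54 within slide 2), and Pf4, platelet factor 4, by 0.21 ± 0.50 (limma adjusted p = 0.801, -0.70 within slide 2). Both lie between Cxcl5 and Cxcl3, and the difference between these genes was not tested. Cxcl15, a lung chemokine, and Cxcr1, the other receptor of this axis, were not well above background on any array. On the far side of the cluster, past Mthfd2l (0.10 ± 0.18), Ereg, the growth factor epiregulin, had log2 values of -7.39, -6.61 and -2.72 with rhTM and -2.45, -2.39 and 1.12 with saline. Its order of hearts and its change of -4.33 ± 1.46 (limma adjusted p = 0.114, -6.69 within slide 2) were close to those of Cxcl3, but its groups did not overlap, as in 18.7% of all genes with rhTM lower. Ereg was well above background on 1 of 3 rhTM arrays, and it passed the test with the mouse number as a block (limma adjusted p = 0.0390).

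**Figure D3:**
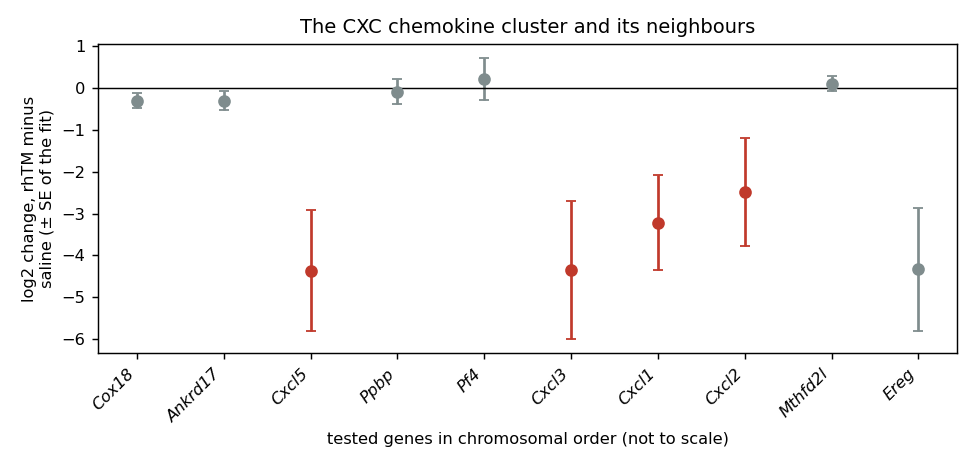
Log2 change, rhTM minus saline, with bars of ± 1 SE, for the tested protein-coding genes around the chemokine cluster in chromosomal order, members in red and other genes in grey. Ppbp, Pf4 and Mthfd2l lie within 0.21 of 0, while the 4 ligands and Ereg lie at or below -2.49.

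Of the genes with GGGAATTTCCC in their promoter window 8 were tested, of which 5 had a lower mean with rhTM and 3 a higher one. The 3 ligands, from whose promoters the string was taken, are among the 5. Of 11647 tested genes with a promoter window, 5731 had a lower mean, 291 were called lower and 301 were called higher. None of the 8 was called (limma, Cxcl1 and Cxcl3 had an unadjusted p under 0.05). Besides the 3 ligands these were Hpn (-0.50 ± 0.32), Krtap5-3 (-0.02 ± 0.27), Il16 (0.53 ± 0.27), Zfp84 (0.58 ± 0.34) and Lyzl4 (0.78 ± 0.27), with limma adjusted p of 0.115 to 0.973. Their values lay between -0.50 and 0.78, while the 3 ligands lay at -2.49 or lower.

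Cytokines, receptors, adaptors and NF-kB genes listed as inducers of the ligands were mostly lower with rhTM. The list also holds Nfkbia, the gene of the NF-kB inhibitor IkB-alpha. It changed by -0.94 ± 0.28 (limma adjusted p = 0.092) and is counted among the lower genes. Of 23 genes listed, 20 were tested and 16 had a lower mean, against 49.2% of all genes. The test was passed by 2 in the lower direction and 0 in the higher, beside 2.41% and 2.75% of all genes. At an unadjusted p under 0.05 there were 11 lower and 1 higher (limma). Traf3ip2, the Act1 adaptor of interleukin-17 receptors, had log2 values of -0.64, -0.67 and -0.58 in rhTM hearts 1 to 3 and 0.58, 0.45 and 0.47 in saline hearts 1 to 3. The groups lay far apart and rhTM 3 was at the level of the other rhTM hearts, unlike in the ligands. Traf3ip2 fell by 1.13 ± 0.16 (SE, limma adjusted p = 0.0273), its other probe differed by -0.93, and it passed as well when blocked on slide (-1.10, limma adjusted p = 0.0324) or on mouse number (limma adjusted p = 0.0464).

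The other called inducer was Myd88, the adaptor of Toll-like and interleukin-1 receptors, at 0.56, 0.49 and 1.46 with rhTM and 2.46, 2.40 and 2.28 with saline. Its call was lost when blocked on slide (-1.44, limma adjusted p = 0.0934) or on mouse number (limma adjusted p = 0.0563). Nfkbiz, the IkB-zeta cofactor that acts on secondary NF-kB targets, changed by -1.81 ± 0.50 (limma adjusted p = 0.0816) and Il1r1, the interleukin-1 receptor, by -1.23 ± 0.38 (limma adjusted p = 0.0964). These 2 passed with the mouse number as a block (limma adjusted p = 0.0459 and 0.0465). Il17ra, the interleukin-17 receptor chain, changed by -1.52 ± 0.52 and Tnfrsf1a, the main tumour necrosis factor receptor, by -0.86 ± 0.31 (its other probe -2.01), and neither passed (limma adjusted p = 0.115 and 0.127). Il1b, the cytokine interleukin-1 beta, had rhTM 3 above saline 1, as the ligands had, at -2.19, -4.11 and 2.02 with rhTM and -0.93, 1.27 and 3.09 with saline (-2.57 ± 1.68, limma adjusted p = 0.325).

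The acute-phase LPS-binding protein gene Lbp changed by -2.22 ± 0.61 (limma adjusted p = 0.0806). Not all inducers lay lower. Tlr4, the LPS receptor, changed by 0.53 ± 0.49 and its partner Ly96 (MD-2) by 0.44 ± 0.20, neither called (limma adjusted p = 0.483 and 0.185), and within slide 2 Tlr4 lay at -0.62. The 2 probes of Tnf, tumour necrosis factor, disagreed: the brighter differed by 0.94 and the dimmer by -2.63, with 1 of 3 rhTM arrays near background. Il1a, Il17a and Il17f were not well above background on any array.

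**Figure D4:**
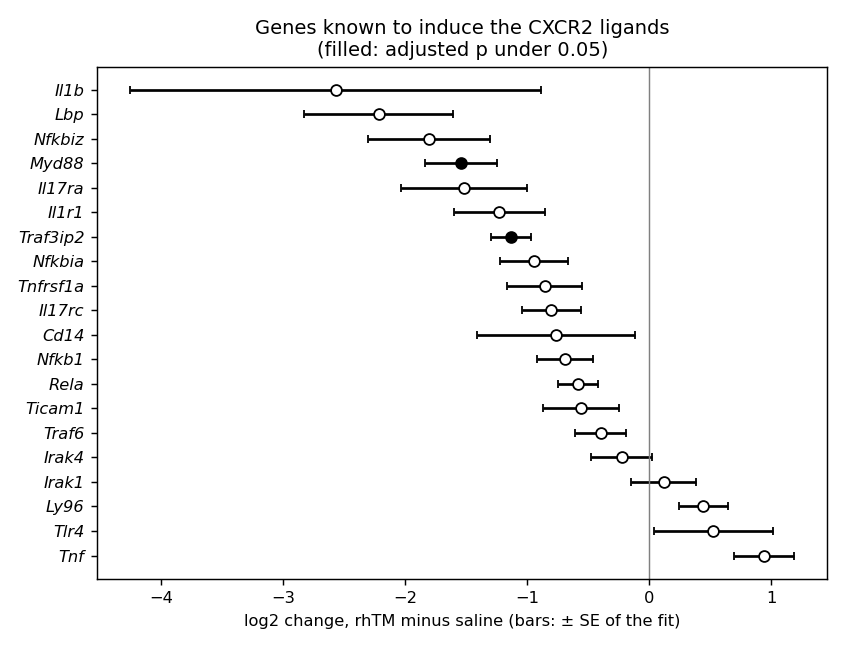
Log2 change, rhTM minus saline, with bars of ± 1 SE for the 20 tested genes of the inducer list, filled where the limma adjusted p was under 0.05. The list includes the NF-kB inhibitor gene Nfkbia. Of the 20, 16 lie below 0, and the filled points are Myd88 and Traf3ip2.

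Genes that control the stability of AU-rich mRNAs, a class to which the Cxcl1 mRNA belongs, were examined next. Of 9 tested, 7 had a lower mean, against 49.2% of all genes, and their median was -0.25. The test called 1 lower and 0 higher, beside 2.41% and 2.75% of all genes. At an unadjusted p under 0.05 there were 3 lower and 1 higher (limma). Arid5a, an RNA-binding protein that stabilises inflammatory mRNAs, was at -0.41, -0.24 and 1.07 with rhTM and 1.97, 2.01 and 2.65 with saline and fell by 2.07 ± 0.43 (limma adjusted p = 0.0481). It lost its call when blocked on slide (-2.51, limma adjusted p = 0.0690) and passed when blocked on mouse number (limma adjusted p = 0.0392). Zfp36, tristetraprolin, which promotes decay of such mRNAs, changed by -1.09 ± 0.24 (limma adjusted p = 0.0521), and Zc3h12a, the RNase regnase-1, by -1.43 ± 0.66 (limma adjusted p = 0.194). Zc3h12a passed with the mouse number as a block (limma adjusted p = 0.0392). Hnrnpd, the AU-rich element binder AUF1, changed by -0.78 ± 0.17 (limma adjusted p = 0.0521), and Zfp36l1, a relative of Zfp36, by 0.50 ± 0.18 (limma adjusted p = 0.127), while its other probe, well above background on all arrays, differed by 2.25.

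Of the CXC chemokines and receptors outside the CXCR2 axis, 13 of 17 were tested and 8 had a lower mean, against 49.2% of all genes. Their median was -0.41 and 0 were called (limma, 3 lower and 2 higher at an unadjusted p under 0.05). Of all genes, 2.41% were called lower and 2.75% higher. Ackr1, the venular scavenging receptor that binds CXCR2 ligands and carries them across endothelium, was at -4.05, -4.06 and -0.81 with rhTM and -0.07, 0.53 and -0.35 with saline. Every rhTM heart lay below every saline heart (-3.01 ± 0.88, limma adjusted p = 0.0890, other probe -3.17), with -2.62 within slide 2. Ackr4, a scavenger of CC chemokines, changed by 2.27 ± 0.60 (limma adjusted p = 0.0741) and was called higher when blocked on slide or on mouse number (limma adjusted p = 0.0379 and 0.0466). Cxcl12, the stromal ligand that retains neutrophils in marrow, changed by 0.06 ± 0.45 (its other probe -0.70), and its receptor Cxcr4 by 1.28 ± 0.44 (limma adjusted p = 0.942 and 0.115).

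Signalling proteins downstream of CXCR2 gave 13 of 17 tested genes with a lower mean, against 49.2% of all genes. Their median was -0.50, with 0 calls (limma, 4 lower and 0 higher at an unadjusted p under 0.05), where 2.41% of all genes were called lower and 2.75% higher. The lowest p was that of Pik3r5, the p101 subunit of phosphoinositide 3-kinase gamma, at -1.54 ± 0.46 (limma adjusted p = 0.0920). Among other neutrophil growth factors and attractants 13 genes were tested (limma, 3 lower and 1 higher at an unadjusted p under 0.05). Of these 1 was called lower and 0 higher, beside 2.41% and 2.75% of all genes. The called gene was Csf3, granulocyte colony-stimulating factor, dim on all rhTM arrays and well above background on none of them. Its log2 values were -7.51, -7.12 and -5.21 with rhTM and -2.50, -2.08 and -0.78 with saline, at least 8.03-fold lower against the lowest signal well above background on each rhTM array. Csf3 was called in all 3 fits (limma adjusted p = 0.0279 for group alone, 0.0330 when blocked on slide, 0.0390 when blocked on mouse number).

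Of 20 neutrophil markers listed, 18 were tested and 16 had a lower mean, against 49.2% of all genes, with a median of -2.31. The test called 1 lower and 0 higher, beside 2.41% and 2.75% of all genes. At an unadjusted p under 0.05 there were 4 lower and 1 higher (limma). The markers' summed signal was 146 to 573 times the 75th percentile in rhTM hearts and 172 to 1160 times in saline hearts. Hearts rhTM 3 and saline 3 were the highest of their groups. In rhTM 1 and 2 the brightest markers, which weigh most in the sum, were Csf3r (log2 6.60 and 6.37) and Itgam (5.95 and 5.86). The mean log2 signal of the 18 tested markers was -1.74, -2.16 and 1.53 in rhTM hearts 1 to 3. In saline hearts 1 to 3 that mean was 0.40, 1.16 and 2.64. The called marker was Cd177, a neutrophil surface protein, which was well above background on 0 of 3 rhTM arrays and at least 2.70-fold lower (limma adjusted p = 0.0212), and Ltf was well above background on 1 of 3 rhTM and 2 of 3 saline arrays. Retnlg, a resistin-like protein of neutrophils, was at -3.34, -4.66 and 2.34 with rhTM and 1.35, 1.78 and 5.19 with saline, and the collagenase gene Mmp8 at -4.24, -3.89 and 1.36 with rhTM and 0.19, 0.73 and 3.05 with saline. In both, as in the ligands, rhTM 3 lay above saline 1. Neither was called for group alone, and Retnlg passed when blocked on mouse number (limma adjusted p = 0.0466). Ngp, a granule protein well above background on 1 of 3 rhTM arrays, changed by -4.14 ± 1.32 (limma adjusted p = 0.104). Mpo (-0.14 ± 0.46) and the brighter probe of Trem1 (-0.28 ± 0.38) had changes smaller than their SE. The dimmer probe of Trem1 gave -2.53, with 1 of 3 rhTM and 3 of 3 saline arrays well above background. Csf3r (0.18 ± 0.18) and Itgam (0.87 ± 0.29, its other probe 0.56) had higher means.

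In a comparison added after seeing the data, the signals were set against the mean of the 18 tested neutrophil markers on the same array. Cxcl5 lay at 0.45, -0.24 and 1.34 log2 units from the marker mean in rhTM hearts 1 to 3 and at 2.35, 2.58 and 3.14 in saline hearts 1 to 3. Cxcl1 lay at 1.62, 0.91 and 1.59 with rhTM and 2.38, 2.63 and 2.23 with saline, and Cxcl3 at -5.76, -4.94 and -3.83 with rhTM and -3.16, -3.50 and -1.37 with saline. For these 3 ligands every rhTM heart was below every saline heart on this scale, with differences of the means of -1.04 for Cxcl1, -2.17 for Cxcl3 and -2.18 for Cxcl5. The Cxcl3 signals of rhTM 1 and 2 were not well above background. With every signal under the lowest one well above background on its array raised to that level, Cxcl1 and Cxcl5 remained below in every rhTM heart (-1.22 and -2.36, a separation of 0.109% of genes), whereas Cxcl3 overlapped between groups (-0.84). Without that floor the separation occurred in 23 of 14701 genes (0.156%), which also included Csf3, Ereg, Il6, Ptx3 and Selp, the neutrophil granule gene Pglyrp1 (-0.93) and Ngp (-1.95), itself 1 of the 18 markers. The marker mean itself changed by -2.19 with rhTM, so only genes that fell further could have a lower mean on this scale. Such shares are thus small through the scale itself, and every rhTM heart lay above every saline heart in 12.7% of genes.

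Cxcl2 overlapped between groups on this scale (means -3.16 ± 0.33 with rhTM and -2.86 ± 0.83 with saline, SD, n = 3). Cxcr2 lay the other way, at -3.04, -2.44 and -2.72 with rhTM and -3.40, -3.11 and -3.57 with saline, with every rhTM heart above every saline heart, as in 12.7% of genes. With the 15 markers that were well above background on all 6 arrays, Cxcl1, Cxcl3 and Cxcl5 were below in every rhTM heart (0.211% of genes) and Cxcr2 overlapped, as it did with the floor. This set lacks Cd177 (log2 change -3.44), Ngp (-4.14) and Mmp9 (-2.31), which fell more than the mean marker (-2.19). Leaving them out moves every gene down on this scale, so the result is no independent check of the ligands. The separation did not hold against S100a8 and S100a9 alone, the calprotectin genes, whose SDs over rhTM hearts (4.17 and 4.01) were the highest of the 18 markers. All 5 genes then overlapped between groups, and the mean differences were 0.24 for Cxcl1, 0.97 for Cxcl2, -0.90 for Cxcl3 and Cxcl5 and 1.90 for Cxcr2. The part of neutrophil number in the members' values was not tested beyond these scales.

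**Figure D5:**
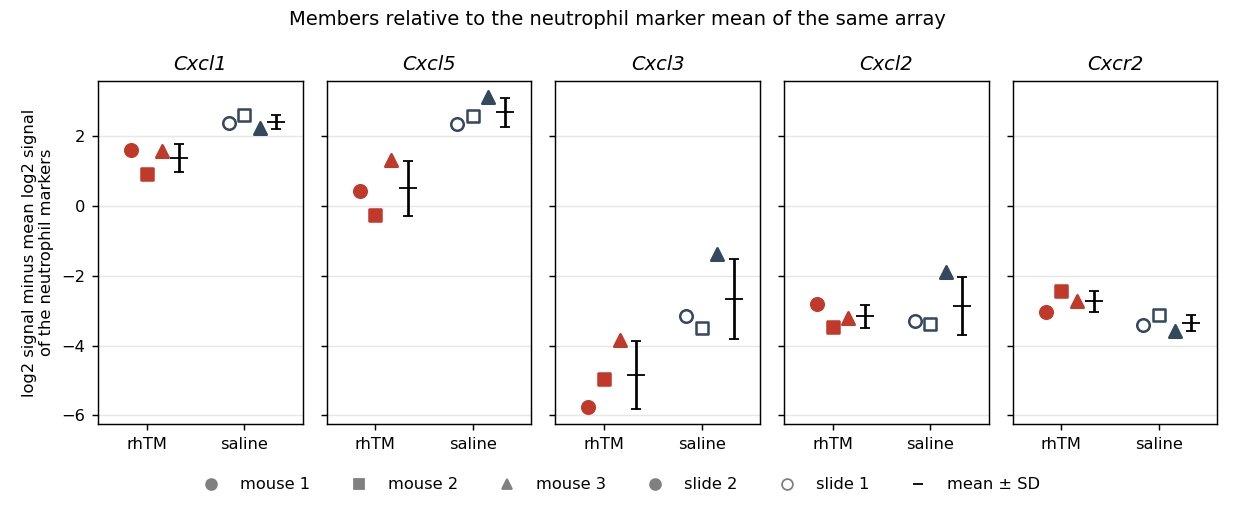
Log2 signal of each gene minus the mean log2 signal of 18 neutrophil markers on the same array, rhTM hearts left of saline hearts, a marker shape per mouse number, open symbols for slide 1 and bars for mean ± SD (n = 3). Cxcl1, Cxcl5 and Cxcl3 lie lower in all rhTM hearts, Cxcl2 overlaps, and Cxcr2 lies higher in all rhTM hearts, but Cxcl3 and Cxcr2 overlap once signals at background are raised to the lowest one well above it.

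Summed signals of endothelial, fibroblast, macrophage and platelet markers overlapped between the groups. Calls in the marker lists below stand beside 2.41% of all genes called lower and 2.75% called higher. Endothelial markers summed to 27.1 to 36.8 times the 75th percentile with rhTM and 26.5 to 46.5 times with saline, with 0 of 9 called (limma, 1 lower and 0 higher at an unadjusted p under 0.05). Fibroblast markers summed to 207 to 304 times with rhTM and 212 to 237 times with saline, with 0 of 7 called (limma, 1 lower and 1 higher at an unadjusted p under 0.05). Lum, the matrix proteoglycan lumican (1.22 ± 0.27, limma adjusted p = 0.0543), passed when blocked on mouse number (limma adjusted p = 0.0431). Monocyte and macrophage markers summed to 24.7 to 38.0 times with rhTM and 20.6 to 35.4 times with saline. Of 10 of these, 1 was called higher, Cx3cr1, the fractalkine receptor, which was well above background on 1 of 3 saline arrays (log2 values -0.35, 0.91 and -1.07 with rhTM and -5.33, -4.00 and -4.38 with saline, limma adjusted p = 0.0244, 0.0549 when blocked on slide). Ccr2, a monocyte chemokine receptor well above background on 1 of 3 saline arrays (2.82 ± 0.63, limma adjusted p = 0.0535), passed when blocked on mouse number (limma adjusted p = 0.0392). Platelet markers summed to 23.9 to 47.995 times with rhTM and 14.6 to 49.4 times with saline, with Gp9, a platelet glycoprotein, called higher (1.57 ± 0.21, limma adjusted p = 0.0248).

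Pericyte and smooth muscle markers summed to 66.7 to 76.2 times with rhTM and 99.3 to 149 times with saline, with no overlap. That sum is weighted to Acta2, the brightest of the 7 (log2 means 4.87 with rhTM and 6.43 with saline). The mean log2 signal of the 7 markers overlapped, at 2.31 to 2.58 with rhTM and 2.25 to 2.80 with saline. A higher mean with rhTM was found in 4 of them and a lower one in 3. Among the markers Acta2, smooth muscle actin (-1.55 ± 0.24), and Pdgfrb, the platelet-derived growth factor receptor of pericytes (-0.995 ± 0.19), were called lower. The other probes of Acta2, both well above background on all arrays, disagreed, at 0.285 and -1.44. Rgs5, a pericyte regulator of G protein signalling, was called higher (1.21 ± 0.24, limma adjusted p 0.0323 to 0.0444 for the 3 genes), and none of these was called when blocked on slide (limma adjusted p 0.0605 to 0.0895). Blocked on mouse number, Acta2 passed (limma adjusted p = 0.0409) and Pdgfrb and Rgs5 did not (limma adjusted p = 0.0554 and 0.0609). Cardiomyocyte markers summed to 2501 to 3493 times with rhTM and 1749 to 2507 times with saline, and Pln, phospholamban, was called higher (1.35 ± 0.28, limma adjusted p = 0.0478). Lymphocyte markers (5 of 9 tested) and mesothelial and lung markers (4 of 7 tested) had 0 calls (limma, 1 lower and 1 higher in the lymphocyte markers and none in the other list at an unadjusted p under 0.05). The part of any of these cell types in the members' values was not tested.

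Genes whose signals followed the members most closely over the 6 arrays were ranked by Pearson r, as a description with no test. Closest to Cxcl1 were Slfn1, a schlafen family gene (r = 0.999), Gm10791 (0.998), Gda, guanine deaminase (0.995), and Socs3, a feedback inhibitor of cytokine receptors (0.993). Slfn4, another schlafen gene, was closest to Cxcl5 (0.998), with Layn (0.996), Rnf121 (0.995) and Socs3 (0.995) after it. Fam104a (0.997), Bcl2l15 (0.997), Tnfaip6, a hyaluronan-binding protein of inflamed tissue (0.993), and Srgn, the granule proteoglycan serglycin (0.993), followed Cxcl2. Mbd1 (0.998), Ddx21 (0.997), Car13 (0.997) and Entpd3, an ectonucleotidase (0.997), followed Cxcl3. Carhsp1 (0.999), Lgals1, galectin-1 (0.992), Tmed3 (0.992) and Cib1 (0.992) followed Cxcr2. Socs3, which ranked for both Cxcl1 and Cxcl5, had log2 values of 0.44, -0.26 and 2.58 with rhTM and 2.93, 3.55 and 4.33 with saline (-2.68 ± 0.75, limma adjusted p = 0.0826).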

How the data were processed

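Scanner files give each spot's intensity, which the authors deposited unscaled between arrays and, in the processed signal used here, background-corrected. The file headers name Agilent Feature Extraction 10.7.3.1 and an mm9 grid; the submitters' processing notes give version 9.1. The authors' deposited table has log2 values of unstated scale, centring and baseline. Its baseline per probe differed between slides (SD 0.824 to 0.825, against at most 1.88e-05 within a slide), so it served only as an alternative.

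Log2 processed signals minus the 75th percentile of each array were used. Spots of a probe were averaged, 368 of 56605 probes with outlier marks were left out, and 32789 of the 56237 kept probes were named through their accession in RefSeq's GRCm38.p6 gene table, whose coordinates are given only for promoter sequences. Each gene was represented by its brightest probe, and genes were tested if 1 group or both had all 3 arrays well above background. Groups came from the sample titles and were compared in R 4.3.3 (limma 3.58.1), in a fit tested on simulated data. Levels of single genes were not compared with each other, and the distance from the neutrophil marker mean, which has no absolute meaning across probes, was compared only between arrays. For a group with no array well above background, a fold is a bound against the lowest signal well above background.

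The labels number the mice 1 to 3 in both groups and name no shared litter or day. Deviations from the group means correlated at 0.319, 0.235 and 0.372 between same-numbered arrays, each over 0.1, so results blocked on this number are given where a call changes. Deviations of rhTM 2 and saline 1 correlated at 0.314, so this check separates hearts 3 from the others more than it separates 1 from 2. The members and gene lists were chosen with earlier results of these data known. Genes with the shared promoter run and genes separated against the marker mean were named after their values were seen. Otherwise named are all members, called genes of the lists and up to 4 genes of a list by p, genes that a small count refers to, and the 4 genes most like each member by Pearson r. Outside this rule Il17ra, Tnfrsf1a, Il1b, Tlr4, Ly96, Nfkbia, Cxcl12, Mmp8, Mpo, Trem1, Csf3r and Ltf were named for their roles, with their values known. Alternatives covered scaling, background, dim probes, probes per gene, array weights and leaving out arrays. Normexp was run on spot medians, since the planned mean signal is not in the columns used here.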

Additional observations from a re-analysis of the deposited data

How the results depend on the processing

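The 5 genes stayed lower with rhTM in all 83 values from the alternatives run, and 19 of the 83 passed the test. Direction was thus kept, but the side of the threshold depended on the hearts included. Calls of all genes in the lower direction ran from 0 to 4581 between these settings, so the passes do not weigh alike. With the mouse number as a block (replicate block), Cxcl2 (-2.49), Cxcl3 (-4.35) and Cxcl5 (-4.36) passed, and no call of Cxcl1 or Cxcr2 changed. Leaving out 1 array at a time gave -4.49 to -2.31 for Cxcl1, -3.63 to -1.38 for Cxcl2, -6.02 to -3.08 for Cxcl3, -5.93 to -3.30 for Cxcl5 and -2.73 to -0.93 for Cxcr2. Without both arrays numbered 3, chosen after seeing the data, all 5 passed (Cxcl1 -3.96, Cxcl2 -2.53, Cxcl3 -4.74, Cxcl5 -5.09, Cxcr2 -2.21). That setting called 3873 genes lower and 3948 higher of 14701, so a pass there says little about the members. With array weights all 5 passed as well (-4.18, -2.82, -4.54, -5.30 and -1.99 in the same order), where 4581 genes were called lower and 4663 higher. The weights were 1.645, 9.101 and 0.315 for rhTM 1 to 3 and 1.871, 1.238 and 0.091 for saline 1 to 3. The rhTM mean of that fit thus leaned on rhTM 2. In the deposited value table Cxcl1 (-6.71), Cxcl2 (-6.24), Cxcl3 (-8.22) and Cxcl5 (-8.15) passed, a scale that adds the difference in baseline between slides. There 2314 genes were called lower and 2205 higher.

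Over all genes, calls higher and lower were 405 and 355 in the group-only fit, 563 and 287 when blocked on slide, 357 and 242 when blocked on mouse number, 132 and 19 with no filter on dim probes, 2205 and 2314 in the deposited table, 4663 and 4581 with array weights and 3948 and 3873 without both arrays numbered 3. Leaving out 1 array gave 0 to 3007 higher and 0 to 2808 lower. The fit without saline 3 gave the most calls, and that without rhTM 1 gave none (limma, 1271 higher and 1314 lower at an unadjusted p under 0.05). Higher calls were 53.3% of calls, 64.3% with arrays centred on the median of the genes tested and 42.5% with normexp and quantile normalization. Against S100a8 and S100a9 in place of 18 neutrophil markers, Cxcl1 (0.24) and Cxcl2 (0.97) turned higher with rhTM. Against the 15 markers well above background on all arrays no member turned, but that set leaves out strongly lower markers, which moves every gene down. With signals raised to the lowest one well above background, the Cxcl3 difference was -0.84 in place of -2.17. The cause of these shifts was not tested. Signal over background limits Cxcl3 in rhTM hearts 1 and 2 and Cxcl2 in rhTM heart 2, and Cxcl2 and Cxcl3 drop out where all 6 arrays must be well above background. The lowest signal well above background was -5.22 on rhTM 1 and -4.82 on rhTM 2. Cxcr2 in these hearts (-4.78 and -4.60) and Cxcl2 in rhTM heart 1 (-4.54) lay close above it.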
